A study of Mus musculus with 8 samples.

Results

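The genes described here are the axon guidance ligands and receptors of the mouse: the semaphorins, plexins, Slits, Robos, netrins, Unc5 receptors, ephrins and Eph receptors. They were chosen by symbol from RefSeq's gene table for the assembly GRCm38.p6, in which 66 of 21627 protein-coding genes on chromosomes 1 to 19 and X belong to these families. The symbols of the 4 Unc5 receptors end in a letter, and 62 genes remain without them. For each gene, peaks of accessible chromatin over the gene body and 10 kb either side were read in 8 libraries. The group was chosen for the presence of such peaks by treatment and genotype, so the counts by group are a description and no test was made on them.

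Axon guidance molecules are cues and receptors that steer migrating cells and growing axons by acting on the cytoskeleton. Semaphorins signal through plexins, in part with neuropilins as co-receptors. Slits are secreted and bind Robo receptors, netrins bind Dcc and the repulsive Unc5 receptors, and ephrins are tethered to the membrane and bind Eph receptor tyrosine kinases on neighbouring cells, with signals into both cells. These families also act outside the nervous system, and Slit, Robo and ephrin-A5 signalling have been studied in ovarian cells.

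The cells were granulosa cells, the somatic cells around the oocyte in the ovarian follicle, profiled by ATAC-seq, in which the Tn5 transposase cuts and tags open chromatin. All mice were 21 days old and received 5 IU of eCG (also called PMSG), which stimulates follicle growth. In the LH experiment, on wild-type mice of the strain CBA x C57BL/6 F1, cells were collected either 46 h after eCG (PMSG, 2 libraries) or, after a further 5 IU of hCG, a mimic of luteinising hormone (LH) that triggers ovulation, 6 h later (hCG, 2 libraries). In the PR experiment all mice were of the strain C.129S7(B6)-Pgrtm1Bwo/OmcJ and were collected 6 h after hCG, as wild type (WT, 2 libraries) or as PR knockout, without a functional progesterone receptor gene, Pgr (KO, 2 libraries). Each library pooled cells of 2 to 3 mice, and the experiments share no library. The time tags of the LH libraries go against their titles, with 0 h after hCG for those titled hCG and 6 h for those titled PMSG. Titles and source names were followed, so every direction between hCG and PMSG rests on them. In the PR experiment the tag is 6 h throughout, although the source name says pre-ovulatory.

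The lists held between 55654 (KO replicate 2) and 84313 intervals (WT replicate 2), and both WT lists were longer than both KO lists. Sequencing depth is unknown, so a peak missing from a shorter list may lie under its threshold. Counts were therefore also made with lists of equal length, 57992 intervals per LH library and 55654 per PR library, best authors' fold first. Peaks over Pgr numbered 4 and 6 in WT and 4 and 3 in KO. They read accessibility and not the targeted allele, so they do not check the genotype. A peak lay at the start of 9 to 11 of 12 granulosa cell markers in each library, among them Foxl2, Fshr and Cyp19a1. The start of Nr5a2 was held in none, that of Inha in WT replicate 1 and KO replicate 1 alone, and that of Amhr2 in all but hCG replicate 2. Of 4 theca markers, 2 (Ptch1 and Tcf21) had a peak at the start in each hCG, WT and KO library and none had one in the PMSG libraries, with Insl3 and Pdgfra at 0 throughout. Of 4 leukocyte markers, Cd68 was held in both hCG libraries and no marker in the other 6, with Ptprc, Itgam and Cd3e at 0. None of 3 oocyte and 2 surface epithelium markers was held at its start, and of 4 endothelial markers 1 (Kdr) was held in all 8 libraries. The smooth muscle and stroma marker with a start window, Acta2, was also held in all 8. Of 3 neuronal markers, Tubb3 and Syt1 were held in all 8 and Rbfox3 in none. The part of other cell types in the results below was not tested. In such bulk samples, fewer cells of a type and less open chromatin per cell cannot be told apart.

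Peaks at the members' starts were mostly shared by all libraries, and at 3 members they followed the groups. RefSeq windows of 300 bases, from 250 before to 50 after a listed start, were at hand for 57 of the 66 members. Such a window was held by a peak in all 8 libraries for 45 of the 57 members (78.9%), against 58.6% of 17273 genes with a window. Per library, 45 to 51 of the 57 were held, against 60.1% to 62.4% of all genes. It was held in no library for 6 (10.5%, against 36.5%), namely Ntn5, Plxnb3, Robo3, Robo4, Sema3a and Sema4d. The remaining 6 were held in some libraries: Efna5, Epha6, Epha8, Epha10, Ntn3 and Sema4a. The starts that followed the groups were those of Efna5 and Epha6, held in hCG replicates 1 and 2 but not in PMSG (0.99% of genes), and of Epha8, held in WT replicates 1 and 2 but not in KO (0.701% of genes). The reverse patterns, seen at no member, occurred at 0.243% of genes for PMSG and at 0.00579% for KO. Their windows are printed with that of Robo1, which was held in all 8 libraries, 5′ to 3′ on the gene's strand. They lie in GRCm38.p6 at chr17:62881268-62881567 (Efna5, minus), chr16:60605482-60605781 (Epha6, minus), chr4:136956767-136957066 (Epha8, minus) and chr16:72662899-72663198 (Robo1, plus). Capitals mark matches to the motifs searched.
Efna5: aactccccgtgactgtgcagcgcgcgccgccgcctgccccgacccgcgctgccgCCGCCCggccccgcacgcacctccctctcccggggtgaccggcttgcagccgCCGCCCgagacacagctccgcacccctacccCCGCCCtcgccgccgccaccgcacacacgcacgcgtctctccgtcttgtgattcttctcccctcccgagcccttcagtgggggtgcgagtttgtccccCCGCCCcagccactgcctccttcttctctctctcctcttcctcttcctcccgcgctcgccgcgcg
Epha6: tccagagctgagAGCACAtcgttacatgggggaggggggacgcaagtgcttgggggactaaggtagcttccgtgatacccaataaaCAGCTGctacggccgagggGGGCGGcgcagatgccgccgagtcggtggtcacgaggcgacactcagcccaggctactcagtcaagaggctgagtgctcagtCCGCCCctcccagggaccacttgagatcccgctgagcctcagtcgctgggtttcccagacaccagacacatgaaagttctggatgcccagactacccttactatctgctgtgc
Epha8: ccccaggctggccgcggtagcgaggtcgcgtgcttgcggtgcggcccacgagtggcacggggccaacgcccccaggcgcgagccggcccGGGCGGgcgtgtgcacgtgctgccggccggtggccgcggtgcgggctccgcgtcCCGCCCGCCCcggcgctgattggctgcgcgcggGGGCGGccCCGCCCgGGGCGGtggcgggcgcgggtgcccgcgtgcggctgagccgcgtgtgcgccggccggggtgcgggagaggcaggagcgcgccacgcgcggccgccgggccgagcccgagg
Robo1: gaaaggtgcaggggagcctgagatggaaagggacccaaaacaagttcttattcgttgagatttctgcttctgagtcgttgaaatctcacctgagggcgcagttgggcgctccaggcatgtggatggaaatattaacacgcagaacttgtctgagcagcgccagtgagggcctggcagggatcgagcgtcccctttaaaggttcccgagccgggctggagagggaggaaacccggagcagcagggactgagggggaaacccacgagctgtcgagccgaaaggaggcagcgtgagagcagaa

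The motifs, searched on both strands, were a GC box GGGCGG, the element TGTNCT and the full palindromic element of steroid receptors of the progesterone receptor class, the RUNX motif TGTGGT, the NR5A motif AAGGTCA, the GATA motif AGATAA, the AP-1 motif TGANTCA, the cyclic AMP response element (CRE) TGACGTCA, the forkhead motif TGTTTAC, the TEAD motif GGAATG and the E-box CAGCTG. A palindromic element can contain a TGTNCT element, and overlapping matches were each counted. In the Efna5 window 4 GC boxes matched, and in the Epha8 window 6, of which 2 overlap. The Epha6 window held 2 GC boxes, 1 E-box and 1 TGTNCT element on the minus strand. None of the motifs matched in the Robo1 window. A GC box was present in 69.9% of the 73 windows of members, against 46.7% of 21044 windows of all genes. TGTNCT was in 39.7% of member windows against 46.2%, the RUNX motif in 12.3% against 14.8%, the TEAD motif in 12.3% against 13.5%, and the NR5A motif in 4.11% against 4.06%. The E-box was in 16.4% against 15.7%, the GATA motif in 4.11% against 9.68%, the AP-1 motif in 4.11% against 7.04%, and the CRE in 1.37% against 2.26%. The palindrome and the forkhead motif were in 0 member windows, against 0.447% and 3.03% of all windows. The median GC content was 64.3% in the 73 member windows, against 56.7% over all windows. It was 65.8% in the 52 member windows held by all 8 libraries and 55.3% in the 13 held by none. A match is a run of letters and not a measured binding site.

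At Efna5, the gene of ephrin-A5, the start window was a matter of where a peak ended. The hCG intervals reached into the window with authors' folds (how far a peak's summit rises above the background that the peak caller estimated) of 7.20 and 7.29. The PMSG intervals had folds of 10.3 and 10.1 and ended 519 and 300 bp short of it. WT intervals covered it with folds of 7.53 and 7.67, KO replicate 1 with 6.47, and the interval of KO replicate 2 ended 21 bp away. All 8 libraries thus had a peak next to this start, and they differed in its extent. Epha6, an Eph receptor of the A class, was alike: folds were 11.4 and 11.2 in hCG, and in PMSG intervals with folds of 14.1 and 13.4 lay 257 and 238 bp away. The WT folds were 3.85 and 15.5, KO replicate 1 had 11.2, and the interval of KO replicate 2 lay 232 bp away. Within 1 kb of the start, both genes had a peak in every library. Epha8, another EphA receptor, differed in kind. Its window was held with folds of 6.03 and 5.42 in hCG, 7.68 and 7.26 in PMSG and 5.36 and 3.46 in WT, while the nearest KO intervals lay 2877 and 3040 bp away. The WT peaks were weak, at rank percentiles of 25.3 and 5.45 in their lists (higher is stronger), and neither was left with lists of equal length.

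For the LH experiment, overlapping intervals (by 1 bp or more) of its 4 libraries were joined into regions. A region is called hCG-only if both libraries titled hCG had it and the PMSG libraries lacked it, and PMSG-only in the reverse case. Around the 66 members lay 523 regions, and 261 of them were shared by all 4 libraries. There were 74 hCG-only regions (14.1%) and 75 PMSG-only regions (14.3%), where all 81943 regions of the experiment gave 17.7% and 10.4%. With lists of equal length the members had 60 hCG-only (12.1%) and 90 PMSG-only regions (18.1%) among 497, and all regions gave 15.3% and 13.3%. Intervals over members numbered 388 and 375 in hCG (0.592% and 0.602% of the lists) and 392 in each PMSG library (0.676% and 0.667%). By gene, 25 members had more hCG-only than PMSG-only regions, 16 had more PMSG-only, 2 had equal numbers and 23 had neither, and over all genes 24.6% and 10.3% had more of the former and of the latter. This excess by gene was gone with lists of equal length, with 18 members each way (18.1% and 16.1% of all genes). With the top 20000 peaks it turned, to 10 and 17 members. The shares of all genes were not counted with the top peaks, so a general turn is possible. PMSG-only regions lay at 24 members, and the 8 with the most held 54 of the 75, with 41 at Robo1, Robo2, Sema5a and Slit3. For hCG-only regions, 34 members had any, and the 8 with the most held 36 of the 74. PMSG-only regions lay at fewer genes over all 21627 genes too. There, 2898 genes had 1 PMSG-only region and 1180 had more, against 4064 and 2553 for hCG-only regions.

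**Figure D1:**
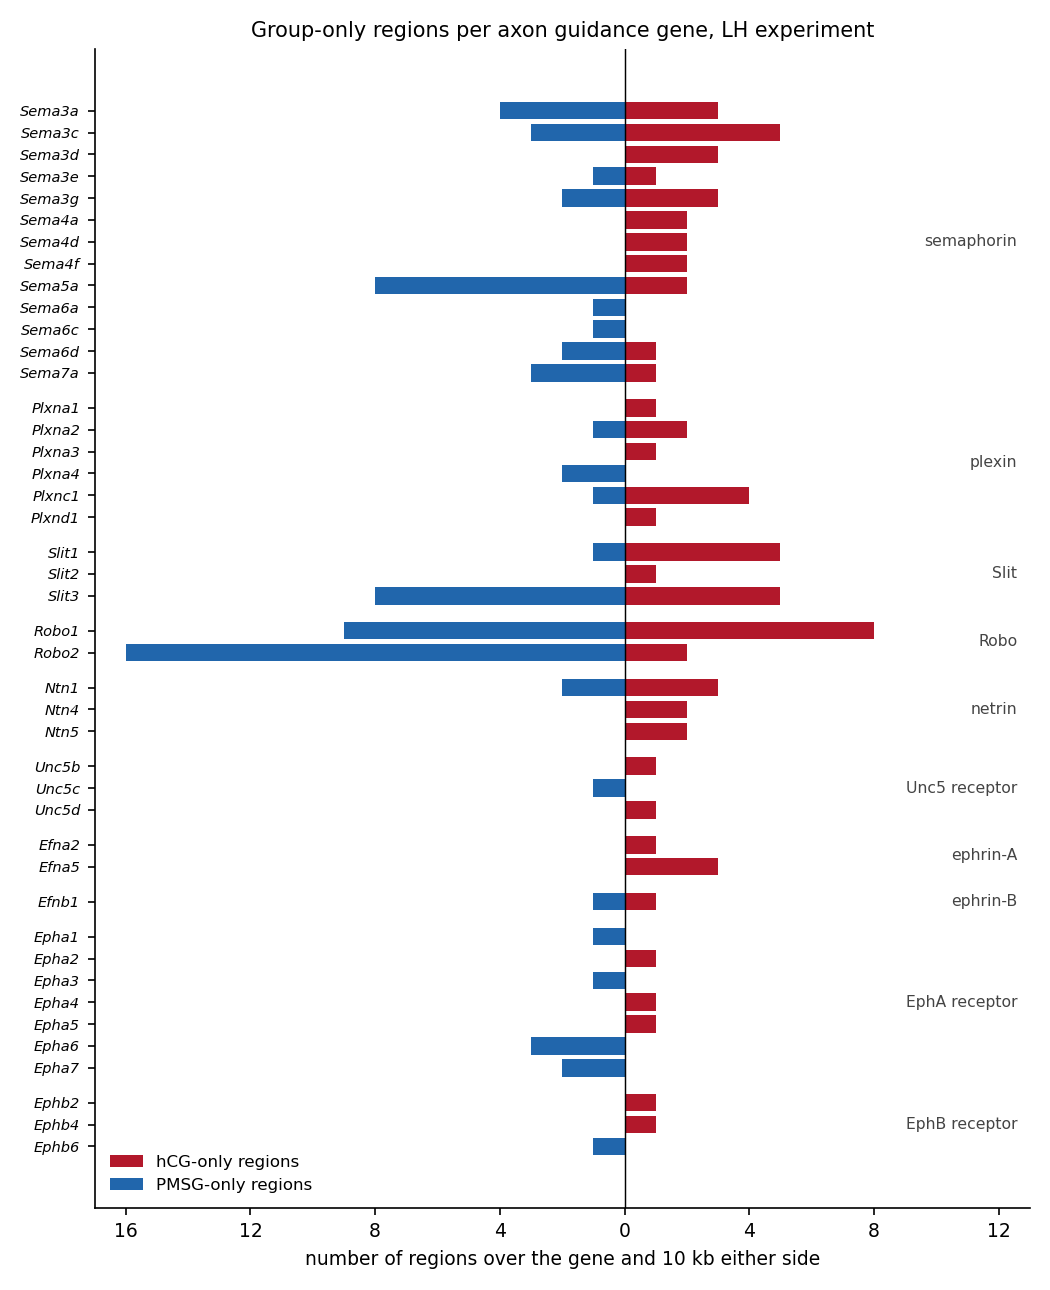
Number of regions per gene (x axis) that were hCG-only (red, to the right) or PMSG-only (blue, to the left), over the gene and 10 kb either side, for members with at least 1 such region, grouped by family. The longest blue bars are Robo2 (16), Robo1 (9), Sema5a (8) and Slit3 (8), and the longest red bar is Robo1 (8).

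Robo1, a Slit receptor (gene ID 19876, chr16:72027518-73047491, plus strand, 1020 kb), had many group-only regions in both directions over its long body. It had 46 LH regions, of which 19 were in all 4 libraries, 8 were hCG-only and 9 PMSG-only. Intervals over Robo1 numbered 31 and 28 in hCG, 33 and 32 in PMSG, 45 and 45 in WT and 36 and 34 in KO. Its listed start was held at similar strength throughout, with folds of 10.2 and 10.1 in hCG, 10.2 and 10.6 in PMSG, 10.2 and 11.1 in WT and 8.83 and 11.1 in KO. Of all 21627 genes, 5 had more PMSG-only regions and 50 had more hCG-only regions than Robo1. Per 100 kb of window, its hCG-only regions numbered 0.769, against 0.79 over all genes and 0.37 over the 351 genes of 400 kb or more. The number of genes with more PMSG-only regions was 2 with lists of equal length, and 22 with the top 20000 peaks. It had 7 hCG-only and 13 PMSG-only regions when lists were of equal length.

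The group-only regions of Robo1 lay throughout the gene body, on both sides of the listed start, and none was at the start. The strongest hCG-only region, chr16:72237190-72237743, lay 426 kb upstream of that start. Its folds were 13.1 and 15.3 in hCG, 14.1 and 19.6 in WT and 4.16 and 10.8 in KO. Next to it, chr16:72239691-72240070 was PMSG-only with folds of 12.5 and 12.1, and was present at 4.68 in WT replicate 1 and at 4.10 and 4.80 in KO. Neighbouring elements inside Robo1 were thus held by opposite groups. The other hCG-only regions, with their folds in hCG replicates 1 and 2, were chr16:72361729-72362196 (6.71 and 6.35), chr16:72688446-72688720 (3.37 and 3.63) and chr16:72811214-72811988 (8.35 and 9.87). Further downstream came chr16:72881274-72881491 (5.79 and 5.20), chr16:72914264-72914696 (9.15 and 11.1), chr16:72944523-72944858 (5.81 and 7.68) and chr16:72945441-72945943 (9.65 and 8.59). All of these but chr16:72881274-72881491, which no PR library held, were also in both WT libraries.

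Among the PMSG-only regions of Robo1, the folds below are those of PMSG replicates 1 and 2. As strong as the one above was chr16:72615059-72615309 (11.7 and 12.8), which all 4 PR libraries held, with 13.5 and 14.6 in WT and 10.3 and 7.42 in KO. Then came chr16:72543777-72544140 (10.5 and 9.47), chr16:72732625-72733006 (9.43 and 8.06) and chr16:72721730-72722066 (7.65 and 6.01). Weaker ones were chr16:72444058-72444709 (6.40 and 6.49), chr16:72215680-72215964 (5.09 and 6.49), chr16:72889075-72889440 (5.49 and 5.60) and chr16:72955297-72955478 (6.40 and 5.96). The last of these was absent from both WT libraries and present in KO with folds of 4.16 and 4.62. Of the 9 PMSG-only regions, WT replicate 1 held 7, WT replicate 2 held 3, and the KO libraries 5 and 6. Of the 8 hCG-only regions, each WT library held 7, and the KO libraries 7 and 6.

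Robo2, the neighbouring Slit receptor on the same chromosome (chr16:73891976-75447443, minus strand, 1560 kb), had the most PMSG-only regions of any protein-coding gene, 16, beside 2 hCG-only regions, among 42 LH regions. This count was 17 with lists of equal length and 15 with a −log10 q of at least 20, again with no gene above it. With the top 20000 peaks of each list it was 6, and 2 genes had more. Intervals numbered 22 and 22 in hCG, 37 and 35 in PMSG, 36 and 31 in WT and 25 and 29 in KO. The strongest of its PMSG-only regions was chr16:74558519-74559034, with folds of 16.0 and 19.2 in PMSG, 13.9 and 4.56 in WT and 6.36 and 11.6 in KO. At chr16:74448387-74448807 the PMSG folds were 17.4 and 15.5, with 14.7 and 6.84 in WT and 9.12 in KO replicate 2 alone. At chr16:73927848-73928604 they were 16.2 and 14.3, and at chr16:73943277-73943687 they were 15.4 and 14.2. Of its 3 listed start windows, the 2 inside the gene were held in all 8 libraries, and the farthest upstream was held in WT replicate 1 alone.

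**Figure D2:**
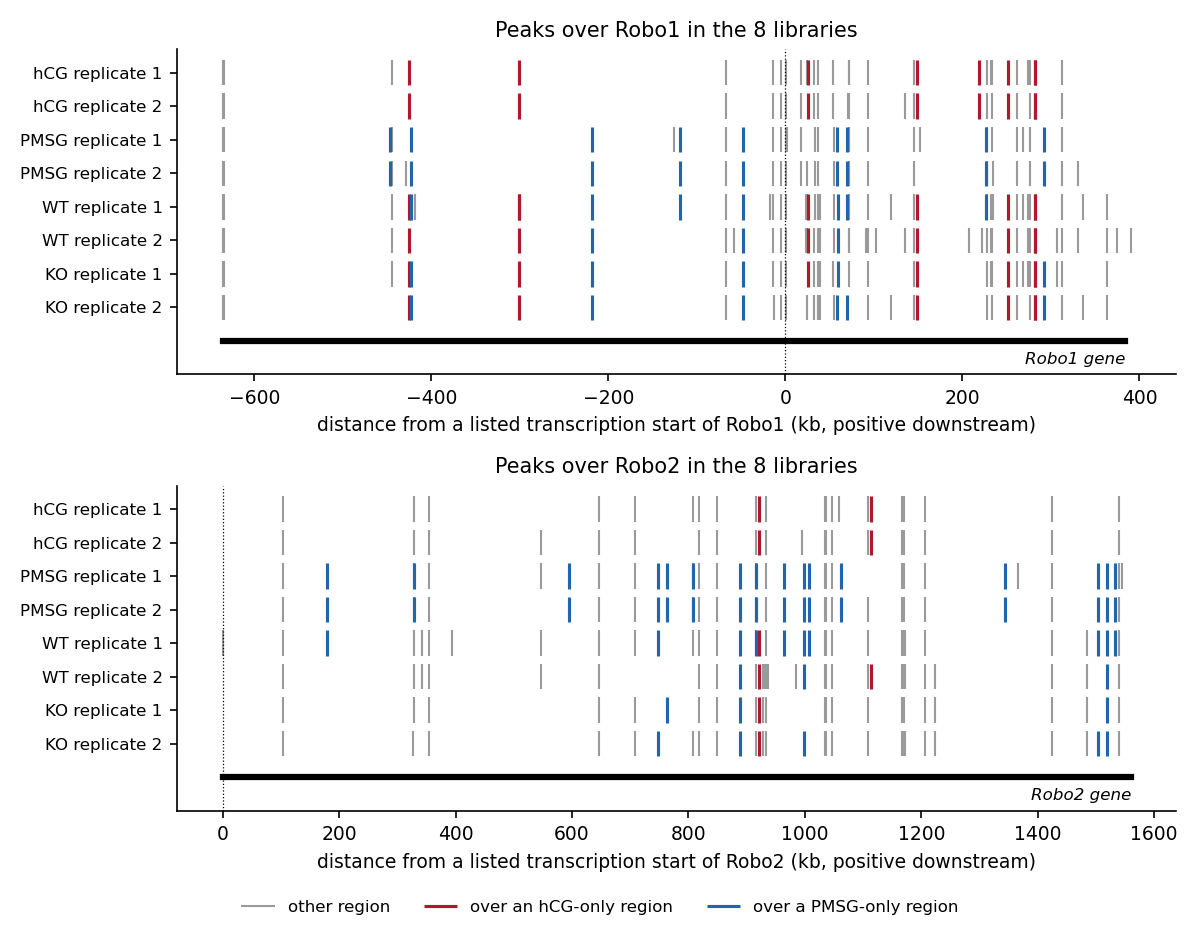
Position of each peak over Robo1 (top) and Robo2 (bottom) in the 8 libraries, as distance in kb from a listed transcription start, with the gene as a black bar. Red marks lie over an hCG-only region, blue marks over a PMSG-only region and grey marks over other regions. The WT and KO libraries each hold 6 or 7 of the 8 red Robo1 regions, and WT replicate 1 holds more of the blue Robo2 regions (10 of 16) than the other PR libraries (3, 3 and 5).

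Robo3, which is known for its part in axons that cross the midline, and Robo4, the Robo of endothelial cells, had no group-only region in either experiment. They had 4 and 2 LH regions and no peak at the listed start in any library. The Robo family's 92 LH regions were thus 10.9% hCG-only and 27.2% PMSG-only, from Robo1 and Robo2 alone. Lists of equal length gave 9 and 30 of 90 regions (33.3% PMSG-only).

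The 3 Slits, the secreted ligands of the Robos, had 47 LH regions, 23.4% hCG-only and 19.1% PMSG-only. Lists of equal length turned this to 19.6% and 23.9% of 46 regions. Slit1 (149 kb) had 5 hCG-only and 1 PMSG-only regions of 14. Its strongest hCG-only region, chr19:41597372-41597884, covered an end of the gene with folds of 11.0 and 10.2 in hCG, 11.2 and 12.5 in WT and 9.99 and 8.02 in KO. All 5 were in both WT libraries, with 2 in KO replicate 1 and 3 in KO replicate 2. Slit3 (587 kb) had 5 hCG-only and 8 PMSG-only regions of 30. WT replicates 1 and 2 held 4 and 2 of the 8 PMSG-only regions of Slit3, KO replicate 1 held 1 and KO replicate 2 none. Slit2 had 1 hCG-only region among 3 regions. Of all genes, 9 had more PMSG-only regions than Slit3, and 44 did with a −log10 q of at least 20.

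The 20 semaphorins had 181 LH regions, of which 25 (13.8%) were hCG-only and 25 (13.8%) PMSG-only, or 22 and 28 of 170 when lists were of equal length. Sema5a, a transmembrane semaphorin with thrombospondin repeats (chr15:32244813-32696341, 452 kb), had 8 PMSG-only and 2 hCG-only regions of 36. The strongest of the 8, chr15:32677601-32678262, had folds of 9.38 and 8.90 in PMSG and 3.8 and 4.68 in WT, and no peak in KO. WT replicates 1 and 2 held 8 and 6 of the 8, and the KO libraries 2 and 4. With all peaks, 9 genes had more PMSG-only regions than Sema5a. Lists of equal length gave Sema5a 9 such regions, and 15 genes had more. The count was not kept with the top peaks of each list, where Sema5a had 1 and 550 genes had more. The densities below used all peaks. Per 100 kb of window, PMSG-only regions numbered 1.70 at Sema5a, 1.32 at Slit3, 1.02 at Robo2 and 0.865 at Robo1, against 0.42 over all genes, 0.329 over genes of 400 kb or more and 0.572 over all members. The hCG-only regions per 100 kb were 0.424 at Sema5a, 0.824 at Slit3 and 0.127 at Robo2, against 0.79 over all genes and 0.37 over genes of 400 kb or more.

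Among the secreted class 3 semaphorins, Sema3a, a repellent that acts through neuropilin-1 and A-class plexins, had the strongest hCG-only region of all members. It lies at chr5:13364946-13365482, inside the gene and 31.6 kb upstream of the listed start. The folds were 16.0 and 18.1 in hCG, 21.0 and 21.6 in WT and 16.1 and 17.7 in KO, and no PMSG library held it. Every library collected after hCG, with or without Pgr, thus held this element. Sema3a also had 4 PMSG-only regions with folds of 6.69 to 11.5, of which WT replicate 1 held 3 and the other PR libraries none. Sema3c had 5 hCG-only and 3 PMSG-only regions. Sema3d had 3 hCG-only regions and no PMSG-only one, and the strongest, chr5:12542164-12542498, had folds of 13.8 and 15.1 in hCG, 15.3 and 18.9 in WT and 11.4 and 7.30 in KO. Of the class 4 semaphorins, Sema4a, Sema4d and Sema4f each had 2 hCG-only regions and no PMSG-only region, and Sema4b, Sema4c and Sema4g had neither. Sema7a, which is anchored to the membrane by a lipid, had 1 hCG-only and 3 PMSG-only regions, all in the flanks of the gene.

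The 9 plexins, the semaphorin receptors, had 57 LH regions, of which 9 were hCG-only (15.8%) and 4 PMSG-only (7.02%). This direction turned with lists of equal length, to 5 hCG-only (9.62%) and 7 PMSG-only regions (13.5%) of 52. Plxnc1, the receptor of Sema7a, had the most, with 4 hCG-only regions and 1 PMSG-only region of 13. It had 2 of each when lists were of equal length. Its hCG-only folds lay between 4.0 and 9.55. Plxna4, a receptor for class 3 and class 6 semaphorins, had 2 PMSG-only regions. The stronger, chr6:32314991-32315432, had PMSG folds of 17.1 and 16.3, and in the PR experiment was held by WT replicate 1 alone at 7.13. Plxnb3 had no peak in any library, over the gene or 10 kb either side.

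The 4 netrins had 7 hCG-only regions of 23 (30.4%) and 2 PMSG-only regions (8.7%). Only 4 hCG-only regions of 20 were left with lists of equal length, beside 3 PMSG-only ones. Ntn4, a netrin of basement membranes, had 2 of the 7, and the stronger at chr10:93647974-93648866 had folds of 10.4 and 12.8 in hCG, 15.4 and 18.0 in WT and 13.1 and 12.8 in KO. Ntn1, the classic netrin, had 3 hCG-only and 2 PMSG-only regions. The 2 hCG-only regions of Ntn5 were weak (2.82 to 3.46) and in the flanks, and neither was left with lists of equal length. The 4 Unc5 receptors had 15 regions, with 2 hCG-only and 1 PMSG-only.

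Among the ephrins, the A class had 4 hCG-only regions of 37 (10.8%) and no PMSG-only one (4 and 2 of 35 when lists were of equal length), and 3 of the 4 were in Efna5. The strongest of these, chr17:62859617-62860061, had folds of 11.0 and 12.3 in hCG, 6.73 and 8.23 in WT and 7.22 in KO replicate 1 alone. The B class had 1 of each among 7 regions. The 9 EphA receptors had 3 hCG-only (6.38%) and 7 PMSG-only regions (14.9%) of 47. Epha6 held 3 of the 7 and Epha7 held 2. Epha2, a receptor of epithelia and many tumours, had 1 strong hCG-only region in its flank, chr4:141329934-141330692, with folds of 14.3 and 13.8 in hCG, 13.7 and 16.0 in WT and 14.0 and 10.1 in KO. The 5 EphB receptors had 2 hCG-only and 1 PMSG-only region of 17, or 1 of each with equal lists.

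**Figure D3:**
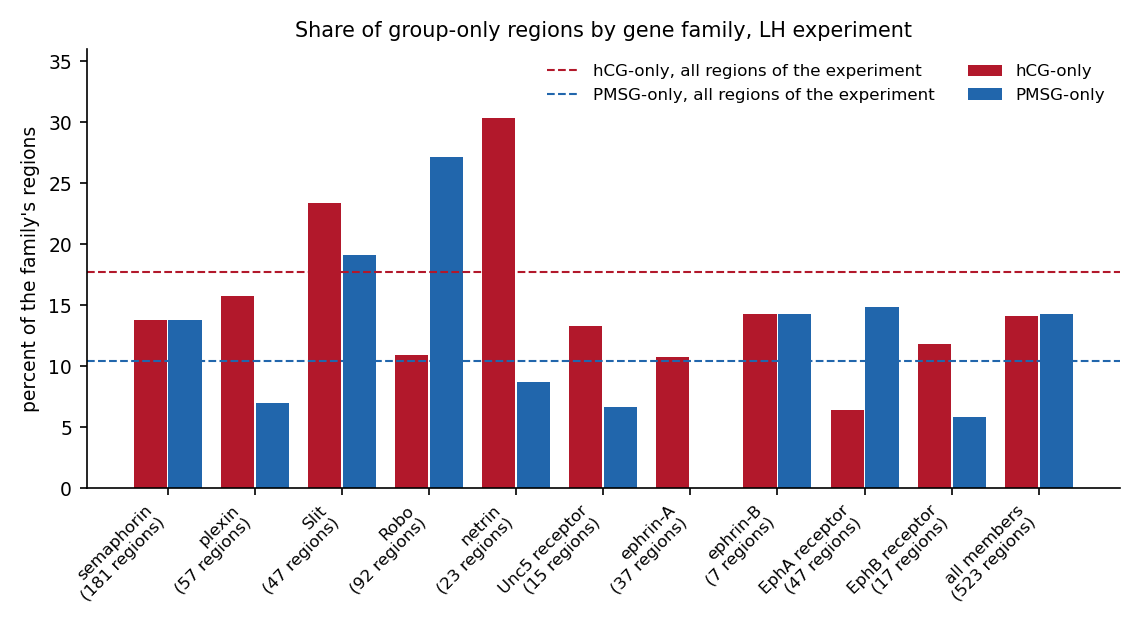
Percent of each family's LH regions that were hCG-only (red bars) or PMSG-only (blue bars), with the same shares over all regions of the experiment as dashed lines (17.7% and 10.4%). The Robo family has the highest blue bar (27.2%) and the netrins the highest red bar (30.4%, from 7 of 23 regions), and the number of regions under each bar shows how few regions some families have.

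At members, gene length went with the direction of these counts when all peaks were used. The 10 members of 400 kb or more had 197 regions, 11.2% hCG-only and 26.4% PMSG-only, while the other 56 had 326 regions, 16.0% hCG-only and 7.06% PMSG-only. Over the 351 protein-coding genes of that length the shares were 18.0% and 16.0%. With lists of equal length those genes gave 16.3% and 18.3%, so their direction turned. The members were split by length with all peaks only. Robo2, Robo1, Sema5a and Slit3, all in the long class, held 41 of the 75 PMSG-only regions. Without these 4, which were picked after their values were seen, 57 of 369 regions (15.4%) were hCG-only and 34 (9.21%) PMSG-only. Members were also longer than other genes, with a median of 42.2 kb against 17.3 kb, and had a median of 6 regions against 3.

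In the PR experiment, regions in both WT and neither KO library are called WT-only, and the reverse KO-only. The members had 567 PR regions, of which 308 were in all 4 libraries, 64 were WT-only (11.3%) and 2 KO-only (0.353%). Over all 91502 regions the shares were 12.1% and 0.0842%. This asymmetry went with the longer WT lists: with lists of equal length, 10 of 435 member regions were WT-only (2.3%) and 26 KO-only (5.98%), where all regions gave 4.25% and 4.16%. Intervals over members numbered 510 and 513 in WT and 365 and 359 in KO. As shares of the lists these were 0.636% and 0.608% in WT and 0.62% and 0.645% in KO, which overlap. More WT-only than KO-only regions were found for 33 members, and more KO-only for none, against 27.2% and 0.125% of all genes. These were 6 and 15 members with lists of equal length, against 8.17% and 9.63%.

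Efna5 had the most WT-only regions of the members, 8, and 20 of all genes had more. Their folds ran from 3.87 to 8.23, 6 of the 8 were in no LH library, and 2 were left with lists of equal length. The strongest, chr17:62872895-62873055, had folds of 8.05 and 8.23 in WT and 6.46 in hCG replicate 1, and no peak in PMSG. Sema5a followed with 6 (1 left), Slit1 with 5 (1 left) and Sema6d with 3 (1 left). A further 12 members had 2 each, and of these Plxna2, Robo2 and Unc5c had 1 left and the other 9, with Efna4 among them, none. The strongest WT-only region of the members was at Unc5c, a repulsive netrin receptor, at chr3:141811439-141811706, with folds of 10.1 and 8.03 in WT and 10.3 and 12.1 in PMSG, and no peak in hCG or KO. Sema6d, a transmembrane semaphorin, had the same pattern at chr2:124542822-124543366, with 10.1 and 7.04 in WT and 10.6 and 12.9 in PMSG. These regions were thus held by WT after hCG and by the other strain before hCG. At Robo2, chr16:74900810-74901211 was WT-only with folds of 7.54 and 8.33. At Slit1, chr19:41630658-41630934 was WT-only (7.85 and 7.14) and held by all 4 LH libraries. Robo1 had 1 WT-only region, chr16:72686600-72686879 (4.47 and 3.79). Its KO-only region, chr16:72955321-72955704, is the weak one already given among its PMSG-only regions. The other KO-only region, chr5:17714756-17715059 in Sema3c, had KO folds of 5.14 and 4.14 and was in no LH library. With lists of equal length, Robo1 had 6 KO-only regions of 42, the most of any member, over a gene of 1020 kb. All regions gave 4.16% KO-only with such lists. With all peaks, WT libraries held peaks at all but 1 of the KO-only regions called at Robo1.

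The LH regions were then read in the PR libraries, which come from other mice of another strain. Of the 74 hCG-only member regions, WT replicates 1 and 2 held 62 (83.8%) and 68 (91.9%), and KO replicates 1 and 2 held 52 (70.3%) and 41 (55.4%). Over all hCG-only regions these shares were 79.9%, 91.3%, 63.4% and 44.7%. Both KO libraries lay below both WT libraries, at members and over all regions. All peaks put 81.1% of the hCG-only member regions in both WT and 52.7% in both KO libraries, and 5.41% in neither WT and 27.0% in neither KO library. Over all hCG-only regions these were 78.6%, 41.8%, 7.44% and 33.7%. Lists of equal length, with 60 hCG-only member regions of their own, put 51.7% in both WT and 56.7% in both KO libraries. They put 18.3% in neither WT and 25% in neither KO library. At members the order thus turned for regions in both libraries of a group and not for regions in neither. With such lists these shares were not counted over all hCG-only regions, so a turn particular to members cannot be told from a general one. All 4 PR libraries held 37 of the 74, against 40.9% over all hCG-only regions, and 10 were in both WT and no KO library (13.5%, against 16.4%). Of the 75 PMSG-only regions, WT replicate 1 held 55 (73.3%), WT replicate 2 held 31 (41.3%), KO replicate 1 held 19 (25.3%) and KO replicate 2 held 26 (34.7%). Over all PMSG-only regions the shares were 76.6%, 45.6%, 21.5% and 34.7%. The WT replicates lay farther from each other here than WT replicate 2 did from KO replicate 2. For PMSG-only member regions the order turned on both measures with lists of equal length. All peaks put 40.0% of the PMSG-only member regions in both WT and 20% in both KO libraries, and 25.3% in neither WT and 60% in neither KO library. Over all PMSG-only regions these were 43.1%, 15.4%, 20.8% and 59.1%. Lists of equal length, with 90 PMSG-only member regions of their own, put 6.67% in both WT and 20% in both KO libraries. They put 74.4% in neither WT and 50% in neither KO library. With such lists these shares were not counted over all PMSG-only regions either, so this turn may be general too.

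**Figure D4:**
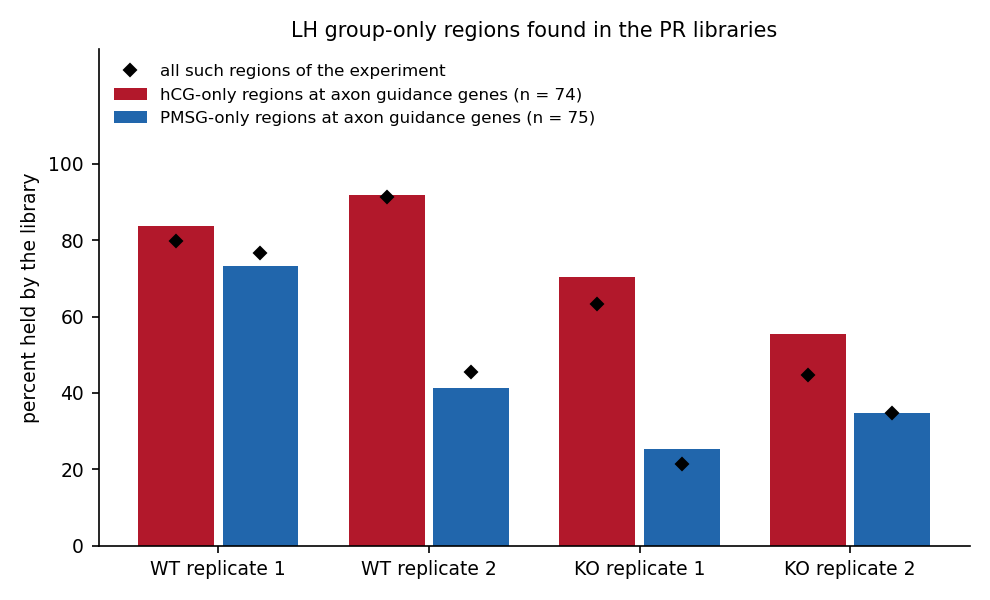
Percent of the hCG-only (red, n = 74) and PMSG-only (blue, n = 75) LH regions at members that each PR library holds, with the same percent over all such regions of the experiment as black diamonds. Red bars are highest in the WT libraries (83.8% and 91.9%), and the blue bar of WT replicate 1 (73.3%) stands above that of the other 3 libraries.

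Group-only regions ranked lower than the shared ones and, with 1 exception, lay away from listed starts. The median rank percentile by the authors' fold was 41.5 for hCG-only and 32.6 for PMSG-only member regions, and 54.5 for those in all 4 LH libraries. Over all regions the medians were 37.7, 33.7 and 60.1. For WT-only member regions it was 20.5, against 28.1 over all. Of the member regions in all 4 LH libraries, 54 of 261 (20.7%) lay at a listed start window, and of the hCG-only and PMSG-only ones none did. Of the PR regions, 53 of 308 in all 4 libraries lay at a start and 1 of 64 WT-only ones, that of Epha8. Inside the gene body were 58 of 74 hCG-only and 66 of 75 PMSG-only regions, and the others were in the flanks. Exons and introns are not told apart by the gene table. Some regions also lay in the window of another gene, 11 of the hCG-only and 6 of the PMSG-only ones.

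The other genes of the pathway were counted in 3 lists. The 14 co-receptors and other receptors, among them the neuropilins and Dcc, had 88 LH regions, 11 hCG-only (12.5%) and 9 PMSG-only (10.2%). The 14 other ligands and modulators had 8 of each among 67 regions (11.9%). The 61 genes of signal transduction, which link the receptors to the cytoskeleton, had 140 hCG-only (21.0%) and 66 PMSG-only regions (9.91%) of 666, where all regions gave 17.7% and 10.4%. When lists were of equal length these were 112 and 84 of 621, and the co-receptors had 11 and 13 of 87 and the other ligands 6 and 9 of 64. More hCG-only than PMSG-only regions were found for 37 of these 61 genes and the reverse for 8, against 24.6% and 10.3% of all genes. In the other lists 4 and 4 co-receptors and 3 and 3 other ligands had more of each. In the PR experiment the 3 lists had 6 (6.52%), 9 (11.7%) and 97 (13.4%) WT-only regions and no KO-only region, where all regions gave 12.1% and 0.0842%. Lists of equal length gave 3, 3 and 20 WT-only and 4, 4 and 22 KO-only regions.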

How the data were processed

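ATAC-seq of granulosa cells gave 8 libraries, and the authors deposited a narrowPeak list of 10 columns, with no header, for each. Per the submitters' processing notes, Bowtie2, MACS2 and the build mm10 were used. Their versions and settings, and any shift of reads for the Tn5 cut, are not given in the sources used here. Peak names mention filtering and marked duplicates in the PR lists only, so the experiments may have been processed differently. Column 7 as deposited is read as fold enrichment, a linear ratio within a library. Column 8 as deposited is taken for the −log10 p-value and column 9 for the −log10 q-value, which was never under 10. The deposited score of column 5 is derived from column 9 and was not used. Fold and −log10 q are the authors' values, used only within a list.

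Summits sharing an interval were joined, with the best fold kept, on chromosomes 1 to 19 and X. Promoter windows and sequences are from RefSeq tables of GRCm38.p6, which matched 57 of 66 members. For the other 9 (Efnb3, Ntn1, Plxna1, Plxna4, Sema3b, Sema3f, Sema6a, Slit1 and Unc5d) no start is given. Coordinates count from 1. Libraries were grouped by title. Replicates pool different mice, and results are given per library. The counting was tested on simulated regions. Named were, per experiment and direction, the 8 members with most group-only regions, the Robos and Slits, members whose start followed a group or that lacked any peak, the 5 best-ranked regions and every group-only region of Robo1. Other named genes and regions were chosen after their values were seen. Members and lists were chosen with earlier results of these data known. Alternatives were lists of equal length (by fold, or by q), the top 20000 peaks, a −log10 q of at least 20, summits with 100 bp either side, coverage of 50% of a region, regions merged over 8 libraries, windows of 0 or 50 kb, no Unc5 genes and each replicate left out. Python 3.11.15, numpy 2.4.6 and pandas 2.3.3 were used, and matplotlib 3.10.9 for figures.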

Additional observations from a re-analysis of the deposited data

How the results depend on the processing

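With the top 20000 peaks of each list, hCG-only regions at members numbered 25, PMSG-only 35, WT-only 3, members with more hCG-only regions 10, with more WT-only 2 and with more KO-only 2. With lists of equal length by fold, WT-only regions numbered 10 and KO-only 26, with more WT-only regions at 6 members and more KO-only at 15. Equal lists by q gave 8 and 22. KO-only regions were 0 with a −log10 q of at least 20, 6 by summits, 5 with 50% of the region covered and 1 without Robo1, Robo2, Sema5a and Slit3. Without those 4 genes, PMSG-only regions numbered 34. With 50 kb flanks, hCG-only regions numbered 121. For hCG-only regions held by both WT libraries, equal lists gave 51.7% (56.7% for both KO libraries) and the top peaks 56.0%, and for those held by neither 18.3% and 24.0%, and the top peaks gave 40.0% held by both KO libraries. For PMSG-only regions, both WT libraries held 6.67% with equal lists, 8.57% with the top peaks and 29.4% with the stricter q, neither held 74.4% and 60.0%, and both KO libraries held 8.57% with the top peaks.

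Leaving out each replicate in turn gave 81 to 98 hCG-only, 81 to 96 PMSG-only, 88 to 118 WT-only and 2 to 9 KO-only regions, and 0 to 1 members with more KO-only regions. WT-only regions numbered 118 without WT replicate 1, 117 without WT replicate 2 and 101 without KO replicate 1. KO-only regions numbered 5 without WT replicate 1, 9 without WT replicate 2 and 7 without KO replicate 2. For hCG-only regions, the share in both WT libraries ran from 73.0% to 91.9%, in neither from 4.76% (without PMSG replicate 2) to 16.2% (without WT replicate 2), in both KO from 39.8% (without hCG replicate 2) to 70.3%, and in neither KO from 23.8% to 44.6% (without KO replicate 1). For PMSG-only regions these shares ran from 34.4% to 73.3% (without WT replicate 2), 22.6% to 58.7% (without WT replicate 1), 16.0% to 34.7% (without KO replicate 1) and 54.8% to 74.7%. Without hCG replicate 1 or 2 there were 89 and 98 hCG-only against 84 and 81 PMSG-only regions, and without PMSG replicate 1 or 2 there were 81 and 84 against 94 and 96, so the order of these counts, 74 and 75 with all libraries, followed the library left out. The order also turned for WT-only and KO-only regions (64 and 2, then 10 and 26 with equal lists) and for members with more hCG-only or more PMSG-only regions (25 and 16, then 18 and 18 with equal lists and 10 and 17 with the top peaks). The cause was not tested. A group of 1 library counts a region as held if that library has it, which raises counts by construction. A planned rule, 50% of the shorter of peak and region, was not run, as every peak meets it by construction. No paired analysis was possible because these counts come from no test. Depth is unknown, which limits every absence.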
